A study of Mus musculus with 16 samples.

Results

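Bcl2 family genes were read on expression arrays of regulatory T cells (Treg), the Foxp3-expressing CD4 T cells that restrain immune responses. The genes were chosen by name, 10 in all, and a gene was measured where a probe set carries its symbol alone. That holds for 9 of the 10 genes: Bcl2, Bcl2l1, Mcl1, Bak1, Bcl2l11, Bid, Bmf, Bbc3 and Pmaip1, each with 1 probe set, out of 19938 genes on the array. The expression of Bax was not analysed here. The cells came from pooled lymph nodes of wild type female C57BL/6 mice, 8 to 12 weeks old, and were sorted by the integrin CD103, which binds E-cadherin on epithelium, and by ICOS, a costimulatory receptor. The groups were activated and fresh cells of 4 subsets: double-positive (CD103pos ICOSpos), ICOS single-positive (CD103neg ICOSpos), CD103 single-positive (CD103pos ICOSneg) and double-negative (CD103neg ICOSneg). There were 2 arrays for each of 8 groups, given as biological replicates, and how many mice were pooled for 1 array is not stated. Activated cells had spent 3 days in a suppression assay with congenic naive CD4 cells, irradiated Rag2-/- splenocytes and 0.5 ug/ml soluble anti-CD3, and were sorted again as CD4-positive, CD25-positive cells without the congenic marker Ly5.1. Fresh cells were taken directly after the first sort.

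Proteins of the Bcl2 family decide whether the outer mitochondrial membrane is opened in apoptosis. Bcl2, Bcl2l1 (Bcl-xL) and Mcl1 hold the membrane closed, Bak1 and Bax form the pores, and the BH3-only proteins Bcl2l11 (Bim), Bid, Bmf, Bbc3 (Puma) and Pmaip1 (Noxa) bind the survival proteins or activate the pore formers. In Treg, Mcl1 is required for survival and Bim limits the number of cells, and FoxO factors are known activators of the Bcl2l11 and Bbc3 genes.

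The sequences before the gene starts are shown for 3 members: Bcl2, the member with the largest fitted difference, and the 2 members whose window holds the FoxO core motif. They are the 250 bases upstream of a RefSeq start in GRCm38.p6, printed 5′ to 3′ on the gene's strand, and capitals mark the motif TGTTTAC on either strand.
Bcl2 (chr1:106714291-106714540, minus strand): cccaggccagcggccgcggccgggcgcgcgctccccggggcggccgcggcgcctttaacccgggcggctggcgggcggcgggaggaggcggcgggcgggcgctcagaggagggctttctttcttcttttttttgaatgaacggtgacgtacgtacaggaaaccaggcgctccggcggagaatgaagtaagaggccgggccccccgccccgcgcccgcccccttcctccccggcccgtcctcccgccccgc
Bcl2l11 (chr2:128125788-128126037, plus strand): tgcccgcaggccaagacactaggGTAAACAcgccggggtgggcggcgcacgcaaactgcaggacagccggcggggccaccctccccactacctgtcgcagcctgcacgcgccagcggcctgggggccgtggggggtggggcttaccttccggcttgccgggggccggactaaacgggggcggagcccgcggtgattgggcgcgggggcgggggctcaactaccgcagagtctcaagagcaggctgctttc
Bbc3 (chr7:16310011-16310260, plus strand): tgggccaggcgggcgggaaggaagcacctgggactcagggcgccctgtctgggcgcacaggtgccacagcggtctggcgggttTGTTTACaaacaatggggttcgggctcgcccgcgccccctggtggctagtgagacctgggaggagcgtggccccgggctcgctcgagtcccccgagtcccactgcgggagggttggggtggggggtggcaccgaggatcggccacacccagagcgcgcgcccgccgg
Counted back from the start, the match begins at base -227 in Bcl2l11, on the opposite strand, and at base -167 in Bbc3. Of 16 such windows, which cover Bax and all measured members but Pmaip1, these 2 hold the motif, and 3.17% of 32851 windows of all genes do. A STAT5 motif, TTCNNNGAA, which reads the same on both strands, was in 0 of the 16 windows and in 7.02% of all windows. Several genes have more than 1 start, and 2 of the Bbc3 windows overlap. A match is a run of letters only, and binding was not measured here.

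The values are log2 intensities, so a difference of 1 is a 2-fold change. Levels of different genes are not set against each other, because each probe set has its own scale. Measured against all probe sets, the mean of Bcl2 lay above 95.3% of them, that of Mcl1 above 94.9% and that of Bak1 above 90.9%. Bbc3 (above 52.4%) and Pmaip1 (above 58.6%) lay near the middle of all probe sets, where background takes a larger part of the signal and a difference can be understated. Array medians lay between 6.26 and 6.48. On the array labelled activated CD103neg ICOSpos replicate 2, Foxp3 was 8.53, against 11.69 to 12.84 on the other 15 arrays. The mean of 10 Treg genes was 9.22 there and 10.88 to 11.80 elsewhere, and the mean of 8 naive and central T cell genes was 11.09, against 9.99 on its partner. Icos was 11.25 on this array, below the 4 activated ICOS-negative arrays (11.63 to 12.12). Itgae, which encodes CD103, was 10 on activated CD103neg ICOSpos replicate 1, above both activated CD103 single-positive arrays (9.94 and 9.87). The subsets are called by their labels. In activated cells these name the first sort, since the second sort as described used neither ICOS nor CD103. Icos was 10.40 to 11.47 on the fresh ICOS-negative arrays, and Itgae was 11.77 and 11.89 on the fresh CD103 single-positive arrays. Member results are from 16 arrays, and 15 arrays are given too where a call differed without the array that stands apart. Counts of the marker and pathway lists are from 16 arrays, and some of them differed on 15.

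**Figure D1:**
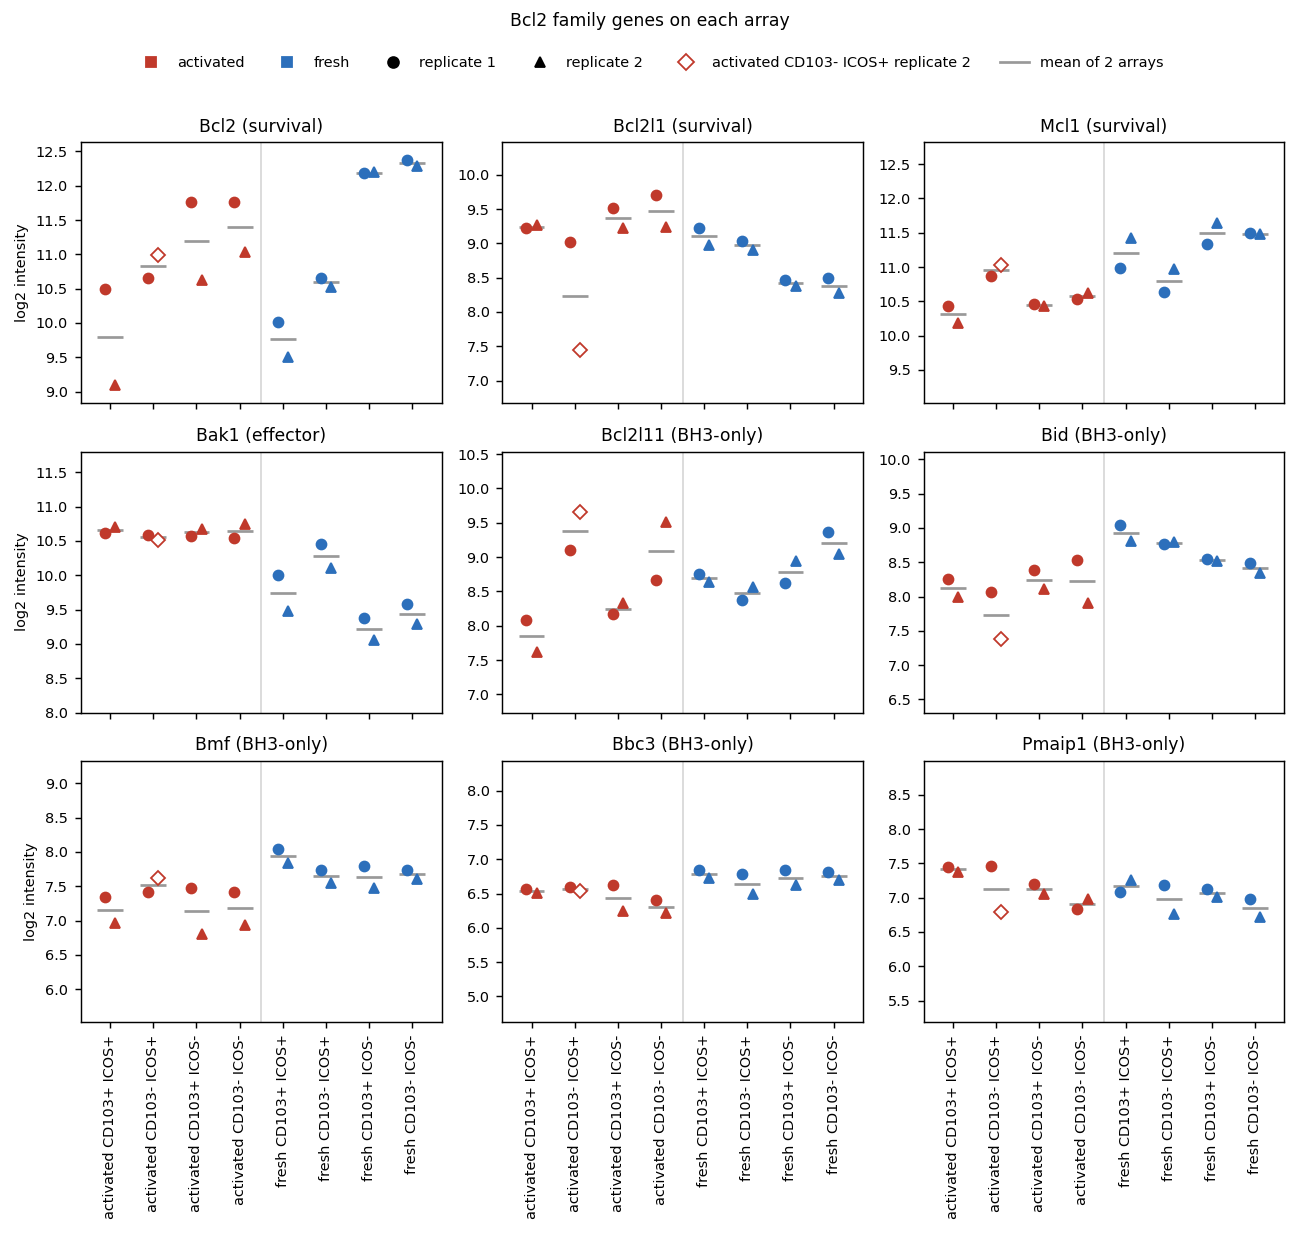
Log2 intensity (y axis) of the 9 measured genes on each of the 16 arrays, by group, with activated cells left and fresh cells right. Circles are replicate 1, triangles replicate 2, the open diamond is activated CD103neg ICOSpos replicate 2, grey bars are means of 2 arrays, and each panel spans the same height. Fresh Bcl2 falls into 2 levels by ICOS, at 10.65 and below in ICOS-positive cells and at 12.18 and above in ICOS-negative cells.

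That array also departs from its partner for several members. Bcl2l1 was 7.44 on it and 9.02 on replicate 1, Bid 7.38 and 8.07, and Pmaip1 6.79 and 7.46. Bcl2l11 was higher on it, 9.66 against 9.11, and so was Bcl2, 10.99 against 10.66. Bak1, Bbc3, Mcl1 and Bmf differed by 0.21 or less between both arrays. Bcl2l1 and Bid had their lowest value of all 16 arrays on it and Bcl2l11 its highest.

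In fresh cells the survival genes Bcl2 and Mcl1 fell with ICOS and the pore former Bak1 rose. Of the 9 members 1 rose and 2 fell at an adjusted p below 0.05, while over all genes 4.10% were called higher and 2.43% lower. The test was limma, fitted to all 16 arrays with 8 group means and adjusted by Benjamini-Hochberg over 19938 genes. On 15 arrays 2 rose and 2 fell, against 4.91% and 2.90% of all genes. The median difference of the members was 0.11, and that of all genes -0.05. In bulk RNA, fewer cells with a message and less message in each cell cannot be told apart.

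Bcl2 was the member that differed most. On the fresh arrays it read 10.01 and 9.51 in double-positive and 10.65 and 10.53 in ICOS single-positive cells, against 12.18 and 12.20 in CD103 single-positive and 12.37 and 12.28 in double-negative cells. All 4 ICOS-positive arrays were below all 4 ICOS-negative ones, with no overlap. The level was 4.24-fold lower with ICOS (log2 difference -2.08, SE 0.31, limma adjusted p = 0.00237), by -1.95 on the replicate 1 arrays and -2.22 on the replicate 2 arrays. The difference was -2.43 among CD103-positive and -1.74 among CD103-negative cells. How many of all genes divide arrays without overlap is not given here. Such splits are a description only, here and below.

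Mcl1, whose protein is short-lived, was lower with ICOS by a smaller amount. It read 10.98 and 11.43 in fresh double-positive and 10.63 and 10.97 in ICOS single-positive cells, against 11.34 and 11.64 in CD103 single-positive and 11.49 and 11.48 in double-negative cells. The groups overlapped, since double-positive replicate 2 lay above CD103 single-positive replicate 1. The log2 difference was -0.49 (SE 0.12, limma adjusted p = 0.0328). It did not pass when any of 5 fresh arrays was left out: double-negative replicate 1 or 2, double-positive replicate 1, ICOS single-positive replicate 1 or CD103 single-positive replicate 2 (differences -0.60 to -0.38 and adjusted p up to 0.13 over all fits without 1 array). It also did not pass with only fresh arrays or with arrays centred on their medians.

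Bcl2l1, the gene of Bcl-xL, ran the other way in fresh cells. It read 9.23 and 8.97 in double-positive and 9.04 and 8.91 in ICOS single-positive cells, against 8.47 and 8.38 in CD103 single-positive and 8.50 and 8.27 in double-negative cells. The ICOS-positive arrays were all above the ICOS-negative ones. The difference of 0.63 did not pass on 16 arrays (SE 0.26, limma adjusted p = 0.226), in a fit whose error includes the activated array that stands apart. On 15 arrays the difference was again 0.63 and it rose (SE 0.12, adjusted p = 0.00747, with adjusted p from 0.00691 to 0.42 over all alternatives).

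Bak1 read 10 and 9.48 in fresh double-positive and 10.45 and 10.11 in ICOS single-positive cells, against 9.38 and 9.05 in CD103 single-positive and 9.58 and 9.29 in double-negative cells. It was 1.61-fold higher with ICOS (log2 difference 0.68, SE 0.13, limma adjusted p = 0.0102), although double-positive replicate 2 lay below double-negative replicate 1. Without ICOS single-positive replicate 1 the difference was 0.60 and just missed the threshold, with an adjusted p that rounds to 0.05.

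The BH3-only genes had smaller ICOS differences in fresh cells, and none of the 5 passed on 16 arrays. Bid, which links death receptors to mitochondria, lay between 8.76 and 9.04 on the ICOS-positive arrays, against 8.34 to 8.55 on the ICOS-negative ones (log2 difference 0.38, SE 0.17, limma adjusted p = 0.252). Its groups did not overlap, and it passed in a fit of only the fresh arrays (0.38, adjusted p = 0.0312, with adjusted p from 0.0312 to 0.458 over all alternatives). Bcl2l11 lay between 8.37 and 8.75 on the ICOS-positive arrays, against 8.62 to 9.36, with a difference of -0.41 and a 95% interval of -0.84 to 0.02. For Pmaip1, Bbc3 and Bmf the intervals were -0.20 to 0.43, -0.26 to 0.19 and -0.23 to 0.50.

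Marker genes of other T cells moved with the same split, for which 4.10% of all genes were called higher and 2.43% lower. Among 8 genes of naive and central T cells, 4 fell with ICOS in fresh cells, and the mean of the list was 9.34 to 10.34 on the ICOS-positive arrays, against 10.29 to 11.25 on the ICOS-negative ones. Of 8 genes of conventional effector CD4 cells 2 rose, with list means of 5.89 to 7.14, against 5.69 to 5.91. Among 7 B cell genes 2 rose (Cd22 and Blk), with list means of 6.06 to 6.92, against 5.83 to 6.85. Among 6 CD8 T and NK cell genes 1 rose and 1 fell, and of 9 myeloid genes 0 passed. Their part in the result was not tested. An array gives every marker some background signal, so no marker reads 0.

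In activated cells 0 of 9 members passed for ICOS in limma, while 6.94% of all genes did. At an unadjusted p below 0.05 there were 2, Bcl2 and Bcl2l1. Bcl2 read 10.50 and 9.09 in activated double-positive and 10.66 and, on the array that stands apart, 10.99 in ICOS single-positive cells, against 11.76 and 10.62 in CD103 single-positive and 11.76 and 11.04 in double-negative cells. The groups overlapped, and replicates of double-positive and of CD103 single-positive cells lay more than 1 apart. The log2 difference was -0.98 (SE 0.31, limma adjusted p = 0.0917), and it was -1.06 on 15 arrays (adjusted p = 0.12, and from 0.0196 to 0.303 over all alternatives). It passed without activated double-positive replicate 1 (-1.33, the lowest adjusted p of that range).

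Activated Bcl2l1 read 9.22 and 9.27 in double-positive and 9.02 and 7.44 in ICOS single-positive cells, against 9.52 and 9.23 in CD103 single-positive and 9.70 and 9.24 in double-negative cells. The value of 7.44 is the array that stands apart. The ICOS difference was -0.68 with it (SE 0.26, limma adjusted p = 0.166) and -0.29 without it (SE 0.13, adjusted p = 0.266, from 0.00273 to 0.397 over all alternatives). Leaving out its partner instead gave -1.08 and a pass, on an ICOS single-positive group of the array that stands apart alone. Conventional effector CD4 genes had list means of 6.96 to 8.60 on the activated ICOS-positive arrays, against 6.09 to 7.30 on the ICOS-negative ones, and their part was not tested.

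**Figure D2:**
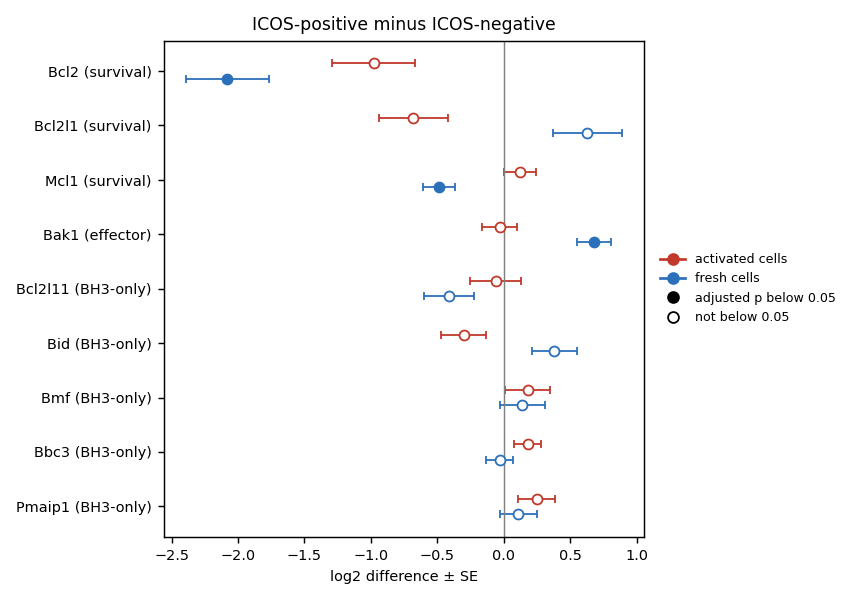
Log2 difference between ICOS-positive and ICOS-negative cells (x axis, point ± SE from limma on 16 arrays) for each gene, in activated cells (red) and fresh cells (blue). ICOS classes are those of the first sort. Filled points passed an adjusted p of 0.05, which 3 genes did in fresh cells (Bcl2 -2.08, Mcl1 -0.49, Bak1 0.68) and 0 in activated cells.

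The ICOS difference was also compared between the states, as the difference in activated cells minus that in fresh cells. Of 9 members 0 rose and 1 fell, against 2.06% and 4.65% of all genes. The member called was Bak1, with a difference of -0.71 (SE 0.19, limma adjusted p = 0.0461): its ICOS difference was -0.03 in activated cells, against 0.68 in fresh cells. The call did not hold on 15 arrays (-0.69, adjusted p = 0.0856) and survived the removal of a single array in 2 of 16 cases. On 15 arrays 0 members rose and 1 fell, Bcl2l1, against 1.96% and 3.96% of all genes. For Bcl2 the change was 1.10 (SE 0.44, adjusted p = 0.184), so the smaller ICOS difference after activation was not established. For Bcl2l1 it was -1.31 on 16 arrays (adjusted p = 0.0632) and -0.92 on 15 (SE 0.18, adjusted p = 0.0139), and over all alternatives the adjusted p ran from 2.84e-04 to 0.124. Mcl1 (0.61, adjusted p = 0.0579) and Bid (-0.68, adjusted p = 0.122) did not pass on 16 arrays. Some alternatives called them, with adjusted p from 0.0222 to 0.121 for Mcl1 and from 0.0228 to 0.239 for Bid over all of them.

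With CD103 in fresh cells, 0 of 9 members passed in limma, against 0.206% of all genes, and 1 had an unadjusted p below 0.05, Bak1, with a difference of -0.38 (SE 0.13, adjusted p = 0.42). For Bcl2 the difference was -0.48 with a 95% interval of -1.18 to 0.21, and for Bcl2l1 it was 0.08 with -0.50 to 0.66. The CD103 difference of Bcl2 was -0.83 among ICOS-positive and -0.14 among ICOS-negative cells, and the interaction of both markers did not pass (-0.69, 95% interval -2.07 to 0.69). For that interaction 0 of 9 members passed, with 0 at an unadjusted p below 0.05, against 0.0451% of all genes called.

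In activated cells CD103 divided Bcl2l11, the gene of Bim. Its levels were 8.08 and 7.61 in double-positive and 8.17 and 8.33 in CD103 single-positive cells, against 9.11 and, on the array that stands apart, 9.66 in ICOS single-positive and 8.67 and 9.51 in double-negative cells. Each CD103-positive array was below each CD103-negative one. Bcl2l11 was 2.28-fold lower with CD103 (log2 difference -1.19, SE 0.19, limma adjusted p = 0.0255), by -0.76 on the replicate 1 arrays and -1.61 on the replicate 2 arrays. It was the 1 member that fell of 9 and 0 rose, against 0.517% and 0.201% of all genes. On 15 arrays the difference was -1.05 (SE 0.20) and did not pass (adjusted p = 0.0782), and 0 of 9 members did, against 0.361% of all genes. It also did not pass without fresh ICOS single-positive replicate 1 or 2, activated CD103 single-positive replicate 1 or activated double-positive replicate 2, or with only activated arrays. The adjusted p ran from 0.00399 to 0.251 over all alternatives, while the difference stayed between -1.40 and -0.98.

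**Figure D3:**
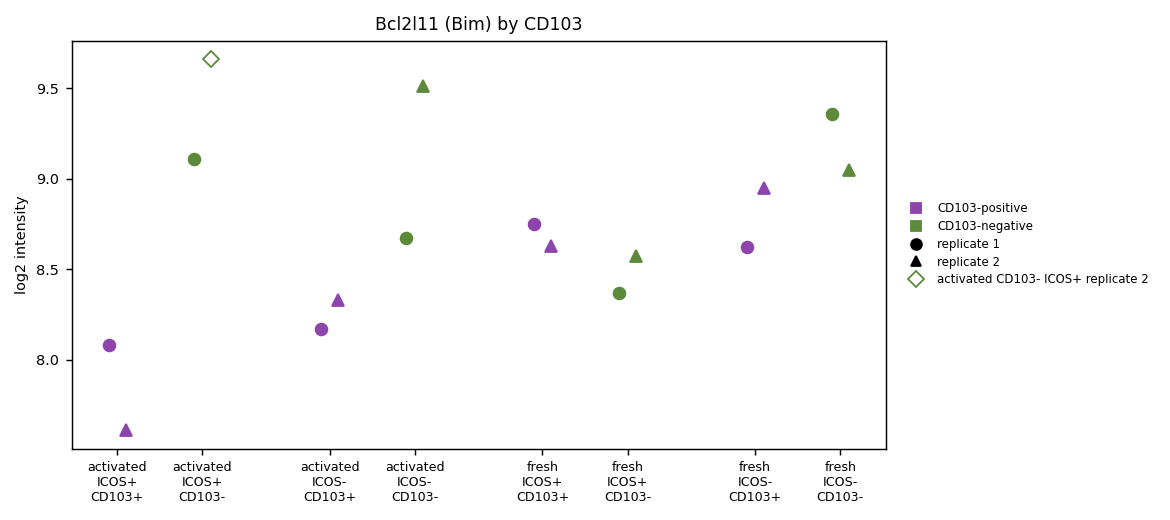
Log2 intensity (y axis) of Bcl2l11 on each array, paired by the CD103 label within each ICOS class, activated cells left and fresh cells right. Labels name the first sort. The 4 activated CD103-positive arrays lie between 7.61 and 8.33, below the 4 activated CD103-negative arrays (8.67 to 9.66), while the fresh classes overlap.

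In fresh cells the same split gave Bcl2l11 8.75 and 8.63 in double-positive and 8.62 and 8.95 in CD103 single-positive cells, against 8.37 and 8.57 in ICOS single-positive and 9.36 and 9.05 in double-negative cells. The CD103 difference there was -0.10 with a 95% interval of -0.53 to 0.33. The change of the CD103 difference between the states was -1.09 (SE 0.27, limma adjusted p = 0.142), and of 9 members 0 passed in this comparison, against 0.296% of all genes, with 3 at an unadjusted p below 0.05 (Mcl1, Bcl2l11 and Bak1). Activated Mcl1 was also lower on each CD103-positive array (10.19 to 10.46) than on each CD103-negative array (10.54 to 11.03), but its difference of -0.39 did not pass (SE 0.12, adjusted p = 0.194). Naive and central T cell genes had a mean of 9.37 to 9.66 on the activated CD103-positive arrays, against 9.71 to 11.09 on the CD103-negative ones, with 0 of 8 passing. Of 8 conventional effector CD4 genes 1 fell, Cd40lg (-1.03), and the mean of the CD8 T and NK cell list was 6.20 to 6.5, against 6.5 to 7.41. Their part in the result was not tested.

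Activation changed 5 of the 9 members over the 4 subsets: Bak1 rose, and the survival gene Mcl1 and the BH3-only genes Bid, Bmf and Bbc3 fell. Over all genes 14.4% were called higher and 16.8% lower. The family was not tested against other genes. The median difference of the members was -0.27, and that of all genes 0.00. On 15 arrays Bcl2l1 rose as well, which makes 2 rising and 4 falling, and the share called higher was 14.2% and lower 16.4%.

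Bak1 was 1.94-fold higher in activated cells (log2 difference 0.95, SE 0.09, limma adjusted p = 1.70e-05). Its activated arrays lay between 10.52 and 10.75, and no other member had so narrow a range after activation: 10.61 and 10.70 in double-positive, 10.59 and 10.52 in ICOS single-positive, 10.57 and 10.68 in CD103 single-positive and 10.54 and 10.75 in double-negative cells. The fresh arrays ranged from 9.05 to 10.45, all lower. The difference was 1.41 in CD103 single-positive and 1.21 in double-negative cells, 0.92 in double-positive and 0.28 in ICOS single-positive cells, whose fresh level was the highest.

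Mcl1 was 1.60-fold lower after activation (log2 difference -0.67, SE 0.08, limma adjusted p = 9.41e-05). It read 10.43 and 10.19 in activated double-positive, 10.46 and 10.43 in CD103 single-positive and 10.54 and 10.62 in double-negative cells, each below all fresh arrays, which ran from 10.63 to 11.64. In activated ICOS single-positive cells it was 10.87 and 11.03, within the fresh range. The differences between activated and fresh cells were -0.89, -1.05 and -0.91 in the first 3 of these subsets and 0.15 in ICOS single-positive cells.

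Bid was 1.49-fold lower in activated cells (log2 difference -0.58, SE 0.12, limma adjusted p = 0.00269). Its activated arrays lay between 7.38 and 8.54, against 8.34 to 9.04 on the fresh ones, and the lowest value was on the array that stands apart. The difference was -0.49 on 15 arrays (adjusted p = 0.00355, and at most 0.00858 over all alternatives). Bmf, a BH3-only protein known to bind the cytoskeleton, was 1.39-fold lower (-0.48, SE 0.12, adjusted p = 0.0083), with 6.80 to 7.62 against 7.48 to 8.05. Bbc3, a p53 target, was 1.20-fold lower (-0.27, SE 0.07, adjusted p = 0.0143), with 6.22 to 6.62 against 6.49 to 6.84. Its mean lay near the middle of all probe sets, above 52.4% of them. Under changed processing of all 16 arrays the difference ran from -0.27 to -0.17 for Bbc3 and from -0.48 to -0.35 for Bmf. These 3 genes overlapped between activated and fresh arrays. By subset, Bid differed by -0.79 in double-positive, -1.05 in ICOS single-positive, -0.29 in CD103 single-positive and -0.19 in double-negative cells. In the same order the differences were -0.79, -0.13, -0.50 and -0.50 for Bmf and -0.25, -0.07, -0.30 and -0.45 for Bbc3.

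Bcl2 did not pass for activation as a whole (log2 difference -0.42, SE 0.22, limma adjusted p = 0.198). Its activated minus fresh differences were -1.0 in CD103 single-positive and -0.93 in double-negative cells, and 0.03 in double-positive and 0.24 in ICOS single-positive cells. Bcl2l1 differed by 0.95 and 1.09 in the first 2 of these subsets and by 0.15 and -0.75 in the others, and its mean difference of 0.36 did not pass (SE 0.19, adjusted p = 0.187). Without the array that stands apart it was 0.56 and rose (SE 0.09, adjusted p = 6.63e-04). Bcl2l11 differed by -0.15 (95% interval -0.45 to 0.16) and Pmaip1 by 0.13 (-0.09 to 0.35).

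**Figure D4:**
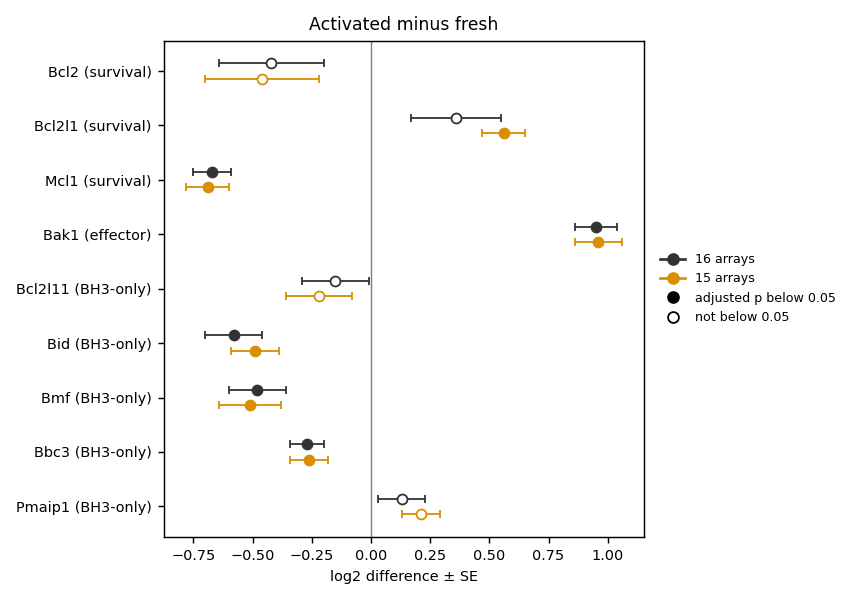
Log2 difference between activated and fresh cells over the 4 subsets (x axis, point ± SE from limma) for each gene, on 16 arrays (dark) and on 15 arrays without activated CD103neg ICOSpos replicate 2 (orange). Filled points passed an adjusted p of 0.05: Bak1 rose by 0.95 and Mcl1, Bid, Bmf and Bbc3 fell on both, and Bcl2l1 passed on 15 arrays.

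Markers of other cells differed between the states, as did 14.4% of all genes called higher and 16.8% called lower. Of 7 B cell genes 5 fell with activation, with list means of 5.33 to 5.81 on the activated arrays, against 5.83 to 6.92 on the fresh ones. Of 9 myeloid and dendritic cell genes 4 fell and 1 rose, with list means of 5.81 to 6.27, against 5.95 to 6.88. Of 8 conventional effector CD4 genes 5 rose and 1 fell, with list means of 6.09 to 8.60, against 5.69 to 7.14, and of 8 naive and central genes 1 rose and 3 fell, with list means of 9.37 to 11.09, against 9.34 to 11.25. Of 6 CD8 T and NK cell genes 2 fell, with list means of 6.20 to 7.41, against 6.34 to 7.10. Of 10 Treg genes 2 rose and 3 fell, with list means of 9.22 to 11.50, against 11.01 to 11.80. Their part in the result was not tested.

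Ordered by level, Bcl2 was highest in the fresh ICOS-negative groups, at 12.33 ± 0.06 (SD, n = 2) in double-negative and 12.19 ± 0.02 in CD103 single-positive cells. The activated double-negative (11.40 ± 0.51), CD103 single-positive (11.19 ± 0.80) and ICOS single-positive groups (10.83 ± 0.23) followed, and neighbours among them overlapped. Fresh ICOS single-positive cells came next at 10.59 ± 0.08, below both activated ICOS single-positive arrays. Their replicate 1 (10.65) lay above activated CD103 single-positive replicate 2 (10.62), so those groups overlapped. The double-positive groups were lowest and overlapped, activated at 9.79 ± 1.0 and fresh at 9.76 ± 0.36. For Bcl2l11 the first 5 groups, from activated ICOS single-positive (9.38 ± 0.39) to fresh double-positive cells (8.69 ± 0.09), overlapped each with the next. Its lowest groups were activated CD103 single-positive (8.25 ± 0.11) and activated double-positive cells (7.84 ± 0.34). The Pmaip1 groups ran from 7.41 ± 0.04 in activated double-positive to 6.85 ± 0.18 in fresh double-negative cells, and from the second group down each overlapped the next. Over the 16 arrays Bcl2 spanned 3.28 on the log2 scale, Bcl2l1 2.26 (1.43 on 15 arrays) and Bcl2l11 2.05, while Pmaip1 spanned 0.74 and Bbc3 0.62.

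The genes whose log2 values were most like those of a member over 15 arrays were found by Pearson's r, as a description, since the arrays share groups and activation splits them. For Bcl2 these were Treml2 (r = 0.95), Slc35g1 (0.94) and Scmh1 (0.94). For Bcl2l11 they were Lyst (0.87), the ubiquitin ligase Cblb (0.87) and Map4k4 (0.84). Mcl1 was most like Pcmtd2 (0.98), Mon2 (0.97) and Senp7 (0.97). Bak1 was most like the histone genes H2bc9 (0.97) and H2bc14 (0.97) and Elob (0.97), and Bid like Rragb (0.96), Cd83 (0.93) and Ptger4 (0.92). Slc12a9 was among the 3 closest genes both for Bbc3 (0.93) and for Bmf (0.94).

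Lists of other genes of the cell death pathway were counted in the same fit, and their activation calls named below had adjusted p-values from 8.55e-08 to 0.0324. Over all genes activation called 14.4% higher and 16.8% lower. For ICOS the shares were 4.10% higher and 2.43% lower in fresh cells and 6.94% in either direction in activated cells. No list was tested against these shares. Of 11 measured genes of the other Bcl2 family list 0 passed for activation, with a median difference of 0.10. Bcl2a1c, a gene of the A1 group, rose with ICOS in fresh cells (log2 difference 0.90, SE 0.18, limma adjusted p = 0.0108) and in activated cells (0.73, SE 0.18, adjusted p = 0.0318). The A1 genes are near-identical copies, so the signal may belong to more than 1 of them. Bcl2a1a, Bcl2a1b and Bcl2a1d, also on the list, were not measured, and no A1 protein was.

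Downstream of the mitochondrion, of 9 apoptosome and caspase genes 5 rose and 1 fell with activation. Casp6, an executioner caspase (log2 difference 1.91), Apaf1, the scaffold of the apoptosome (0.97), and Cycs, which encodes cytochrome c (0.85), were among those that rose, and Diablo, an antagonist of the inhibitors of apoptosis, fell (-0.60). The median of the list was 0.50, against 0.00 for all genes. Of 4 inhibitors of apoptosis 2 fell, Xiap (-0.50) and Birc6 (-0.37), with a list median of -0.15. With ICOS, Apaf1 rose in fresh cells (0.54), and in activated cells Casp6 (-0.88), Htra2 (-0.69) and Aifm1 (-0.51) fell. On 15 arrays Casp6 did not pass (-0.81, adjusted p = 0.112).

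Of 8 death receptor genes 1 rose and 3 fell with activation, with a list median of -0.17. Tnfrsf10b, a TRAIL receptor, rose (log2 difference 0.69), and Tnfrsf1a (-0.70), Cflar, which blocks caspase-8 (-0.37), and Tradd (-0.27) fell. Tnfrsf10b also rose with ICOS in fresh cells (0.58) and fell with ICOS in activated cells (-0.56, and -0.42 with adjusted p = 0.06 on 15 arrays).

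Among the regulators, of 11 FoxO, Pim and STAT5 genes 4 rose and 3 fell with activation, with a list median of 0.03. Foxo1 fell (log2 difference -0.50), and Pim1 (0.57), Stat5a (0.53) and Il2ra (0.48) rose. Pim1 encodes a kinase, Stat5a a transcription factor and Il2ra a chain of the interleukin-2 receptor that feeds into it. That chain is CD25, by which the activated cells were sorted again, and the part of that sort in the rise was not tested. Il2ra is also among the Treg genes counted as rising with activation. Of 5 genes of Mcl1 turnover 1 fell, Huwe1, a ubiquitin ligase for Mcl1 (-0.32), with a list median of -0.21. Of 10 p53 targets 5 rose and 2 fell, with Sesn1 (-1.67), Trp53inp1 (-1.19), Phlda3 (1.03) and Sesn2 (0.98) furthest from 0. The median of the p53 list was 0.16. In fresh cells Sesn2 (1.19) and Ei24 (0.70) rose with ICOS. In activated cells Trp53inp1 (0.74) and Sesn1 (0.57) rose with ICOS, and Sesn1 fell with CD103 (-0.70, adjusted p = 0.0271, and 0.088 on 15 arrays).

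**Figure D5:**
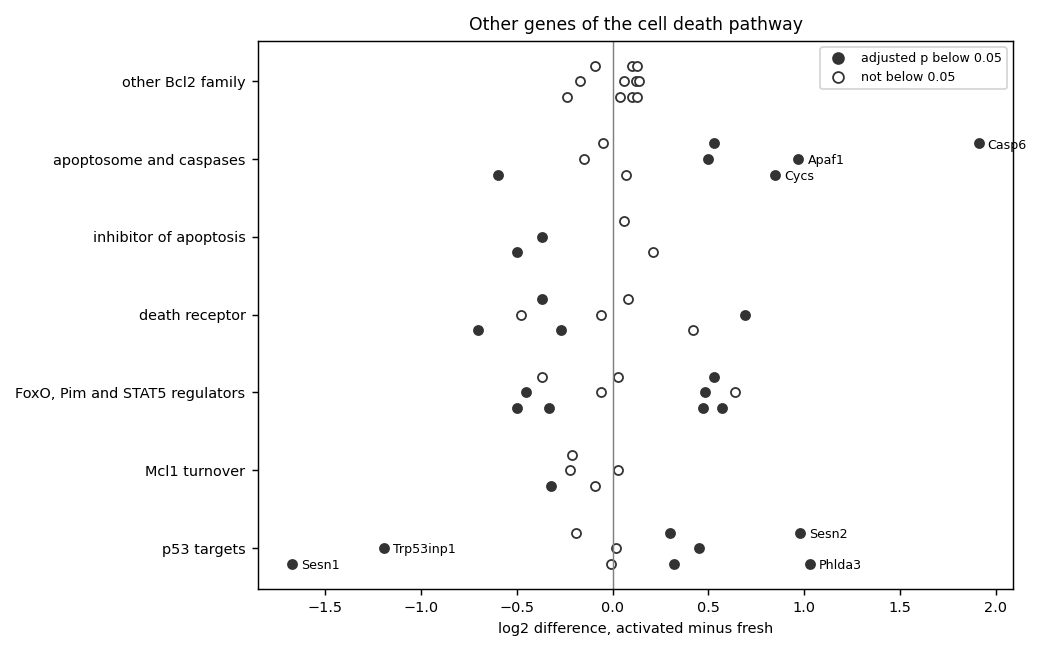
Log2 difference between activated and fresh cells (x axis) for each measured gene of 7 lists of the cell death pathway (rows). Filled points passed an adjusted p of 0.05 in limma on 16 arrays, and names are given for those at 0.8 or further from 0, from Sesn1 at -1.67 to Casp6 at 1.91.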

How the data were processed

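The deposited values are log2 intensities, 1 for each of 35556 probe sets on 16 arrays, made by the authors with RMA and the affy package, per the submitters' processing notes, with versions and options not given in the sources used here. Per the labels, label was made from 270 ng of total RNA. Deposited values lie between 3.02 and 14.24, and no second normalization was applied. The precision is limited by how many arrays there are, since intensities carry no read depth.

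The annotation gives 21789 probe sets exactly 1 symbol, 1621 several and 12146 none. The brightest 1-symbol probe set stood for a gene, which left 19938 genes and no filter on dim ones. limma 3.58.1 in R 4.3.3 was fitted once to 8 group means, which left 8 residual degrees of freedom (prior 2.90), and 8 comparisons were made. A gene was called where p, adjusted over all genes by Benjamini-Hochberg, was below 0.05. The p-values rest on the spread within groups, each of 2 arrays labelled biological replicates. The procedure was tried on simulated data with independent noise on each array, and the outcome is not given here. Deviations shared by arrays of the same replicate number were not simulated, so that setting was not tested. Alternatives left out each array, added the replicate number as a block, or changed scaling, filter, probe set summary, weights, prior or arrays fitted.

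All 9 measured members are named. From each pathway list, genes that passed are counted and up to 4 with the largest differences named. The members and lists were chosen with earlier results of these data known.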

Additional observations from a re-analysis of the deposited data

Results flagged for a closer look

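The ICOS difference of Bak1 was not the same in activated and in fresh cells by the test of that change (-0.71, SE 0.19, limma adjusted p = 0.0461, and 0.0856 on 15 arrays). The same test singled out 3 genes of the pathway lists. For Tnfrsf10b the change was -1.14 (adjusted p = 0.00421, and -1.0 with adjusted p = 0.00459 on 15 arrays), for Sesn1 it was 0.82 (adjusted p = 0.0135, and 0.0297 on 15 arrays), and for Ei24 it was -0.75 (adjusted p = 0.0466, and 0.0782 on 15 arrays). The CD103 difference of Sesn1 changed between the states by -0.95 (adjusted p = 0.0471, and 0.0818 on 15 arrays). No cause was tested for any of them.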

How the results depend on the processing

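None of the 31 results tried under the alternatives changed direction. The cause of the changes below was not tested. With 1 array left out at a time, the count of members called ran from 1 to 4 for ICOS in fresh cells (3 on all arrays, and 1 without fresh CD103neg ICOSpos replicate 1), from 0 to 1 for ICOS in activated cells (0), from 0 to 2 for CD103 in activated cells (1), from 5 to 6 for activation (5) and from 0 to 2 for the ICOS difference between states (1). It stayed at 0 for the other 3 comparisons under every alternative run. Where a group was left with 1 array, that array is assumed to vary like the other groups. For the ICOS difference between states, 2 members were called with arrays centred on their medians and 2 with dim genes left out, and 0 with array weights. For CD103 in activated cells 0 were called with only activated arrays. With the replicate number as a block, 1 member was called for ICOS in activated cells (Bcl2, adjusted p = 0.0271) and 4 for the ICOS difference between states: Bak1 (-0.71, adjusted p = 0.0196), Bcl2l1 (-1.31, adjusted p = 0.0179), Bid (-0.68, adjusted p = 0.0228) and Mcl1 (0.61, adjusted p = 0.0243), of which Bak1 alone was called without the block. The labels do not say that a number marks a shared experiment. Deviations of same-numbered arrays correlated at 0.50 to 0.75 between fresh groups, 0.11 to 0.45 between activated groups and -0.02 to 0.42 across the states, and with 2 numbers this is a hint from the data only. Counts over all genes ran over all alternatives from 771 to 2275 for ICOS in fresh cells (1301), from 4 to 268 for CD103 in fresh cells (41), from 0 to 71 for the interaction (9), from 443 to 2734 for ICOS in activated cells (1383), from 0 to 942 for CD103 in activated cells (143), from 5484 to 7634 for activation (6214), and from 815 to 2638 (1339) and 8 to 370 (59) for the ICOS and CD103 differences between states.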
